A study of Mus musculus with 12 samples.

Results

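A list of 39 genes of DNA replication and S-phase entry was followed in mouse ears during contact hypersensitivity. The list holds named replication factors and was drawn up with earlier results of these data known, and 38 of them had a probe set annotated to that gene alone, out of 18194 such genes on the array. Chaf1a, a subunit of the histone chaperone CAF-1, was not measured by such a probe set and is given no level here. All 38 measured genes passed the filter used for testing (3 or more of the 12 arrays with an intensity of 16 or more), as did 13383 genes in all. Each gene is represented by whichever of its probe sets, among those naming that gene alone, averaged highest in log2 intensity over the 12 arrays.

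The samples were whole ears of female mice aged 8 to 10 weeks, in 4 groups of 3: knockout DNFB ears, knockout control ears, wild-type DNFB ears and wild-type control ears. The knockout mice carried deletions of both cannabinoid receptor genes (Cnr1-/-/Cnr2-/-), and the wild-type mice were labelled C57BL/6J; the labels do not name the strain background of the knockout. By the protocol in the labels, DNFB (1-fluoro-2,4-dinitrobenzene, a contact allergen) was applied to shaved abdominal skin on consecutive days, at 0.2% in 50 µl. On day 5 the right ear received 0.3% DNFB in 10 µl, and ears were taken 48 h after what the labels call the second challenge. The left ear of the same mouse was left unpainted, so sensitization is common to all 4 groups, and DNFB and its acetone and olive oil vehicle cannot be told apart in the ear.

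Before DNA can be copied, the origin recognition complex together with Cdc6 and Cdt1 loads the ring-shaped Mcm helicase onto origins, a step called licensing. Cdc45, the GINS complex and Mcm10 then turn the loaded ring into an active helicase, primase and the replicative polymerases copy the strands, and the Pcna clamp with its loader, flap nuclease and ligase completes the lagging strand. Cyclin E and the E2F transcription factors drive this program at the G1/S boundary, and many replication genes carry E2F sites near their start. In skin, replicating cells are normally found in the basal epidermis and in the hair matrix, and the dividing cells of an inflamed ear can also include leukocytes.

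Promoter sequences came from RefSeq (build GRCm38.p6) in a table that covers 250 bases before and 50 bases after each annotated start and had entries for 33 of the 39 genes. Forms of the E2F site were searched on both strands: the word TTCCCGC, its relative with the letters TTGGCGC, the further form written TTCGCGC, and lastly the form with letters TTGCCGC. Overlapping words were counted separately. The stretches of 250 bases before the start are shown for the genes with most such words before the start (Mcm6, Mcm5 and Pola1), for the gene with the largest wild-type response (Rrm2), for the gene with the smallest p in knockout ears (Uhrf1), and for Orc6, which was not called. Capitals mark the E2F words.
Mcm6: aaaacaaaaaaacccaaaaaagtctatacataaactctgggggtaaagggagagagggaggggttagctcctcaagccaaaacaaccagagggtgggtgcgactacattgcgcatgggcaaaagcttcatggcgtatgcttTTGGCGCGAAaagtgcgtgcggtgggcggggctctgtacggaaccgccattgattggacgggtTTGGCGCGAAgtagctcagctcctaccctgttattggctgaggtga
Mcm5: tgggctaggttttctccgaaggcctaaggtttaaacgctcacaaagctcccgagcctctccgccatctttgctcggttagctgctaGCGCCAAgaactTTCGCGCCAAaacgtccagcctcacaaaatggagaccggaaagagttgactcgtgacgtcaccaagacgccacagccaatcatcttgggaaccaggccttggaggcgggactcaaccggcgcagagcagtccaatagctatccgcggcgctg
Pola1: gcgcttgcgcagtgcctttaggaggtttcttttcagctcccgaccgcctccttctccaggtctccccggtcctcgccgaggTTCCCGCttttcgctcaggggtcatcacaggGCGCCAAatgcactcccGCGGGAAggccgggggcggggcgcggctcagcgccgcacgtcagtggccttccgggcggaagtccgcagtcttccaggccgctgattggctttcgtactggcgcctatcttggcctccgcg
Rrm2: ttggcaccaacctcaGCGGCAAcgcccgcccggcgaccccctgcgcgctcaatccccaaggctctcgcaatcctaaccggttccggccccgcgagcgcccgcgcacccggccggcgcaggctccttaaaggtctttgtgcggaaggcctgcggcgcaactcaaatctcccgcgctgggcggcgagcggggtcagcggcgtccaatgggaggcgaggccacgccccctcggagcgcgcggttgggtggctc
Uhrf1: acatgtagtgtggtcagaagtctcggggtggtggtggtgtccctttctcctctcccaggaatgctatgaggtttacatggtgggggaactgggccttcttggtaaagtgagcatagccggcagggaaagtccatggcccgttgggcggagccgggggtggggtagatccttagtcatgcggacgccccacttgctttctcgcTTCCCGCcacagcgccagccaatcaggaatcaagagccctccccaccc
Orc6: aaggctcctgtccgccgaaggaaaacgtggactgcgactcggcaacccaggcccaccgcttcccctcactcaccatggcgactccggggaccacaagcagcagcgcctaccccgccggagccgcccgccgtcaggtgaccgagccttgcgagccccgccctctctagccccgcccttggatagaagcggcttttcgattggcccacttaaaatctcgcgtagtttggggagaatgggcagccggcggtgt
The Mcm6 stretch lies at chr1:128359706-128359955 on the minus strand, that of Mcm5 at chr8:75109259-75109508 on the plus strand and that of Pola1 at chrX:93632156-93632405 on the minus strand. The Rrm2 stretch lies at chr12:24708004-24708253 on the plus strand, that of Uhrf1, the first of its 2 annotated promoters, at chr17:56303087-56303336 on the plus strand, and that of Orc6 at chr8:85299382-85299631 on the plus strand. In Mcm6 the word TTGGCGC on the gene's strand overlaps TTCGCGC on the other strand at each of 2 places, and in Mcm5 these words overlap once with the strands exchanged.

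An E2F word was present in the 300 bases of at least one promoter of 21 of the 33 genes (63.6%), against 18.3% of the 10745 tested genes with a promoter entry and 10.9% of all 27025 genes in the table. Of all 32851 promoters in the table, 9.57% held one. Among the 2052 genes with a promoter entry that rose in wild-type DNFB ears the share was 18.9%. Among 66 genes of the further lists given below, which include G1/S regulators and cyclin-dependent kinase inhibitors, it was 51.5%. At least 2 words were found in 10 of the genes, with 5 in Mcm6, 4 in Pola1 and 3 each in Mcm3, Mcm5 and Mcm7. None was found in the windows of 12 genes, among them Mcm2, Tk1, Ccne1 and Pcna, which rose, and Orc6 and Tyms, which were not called. The word CCAAT, the core of the NF-Y site, was present in 57.6% of the replication genes against 42.0% of the tested genes. TTTGAA, the core of the cell cycle homology region found in many genes of mitosis, was present in 9.09% against 14.6%. These matches describe letters, not bound factors, and no test was made of them.

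**Figure D1:**
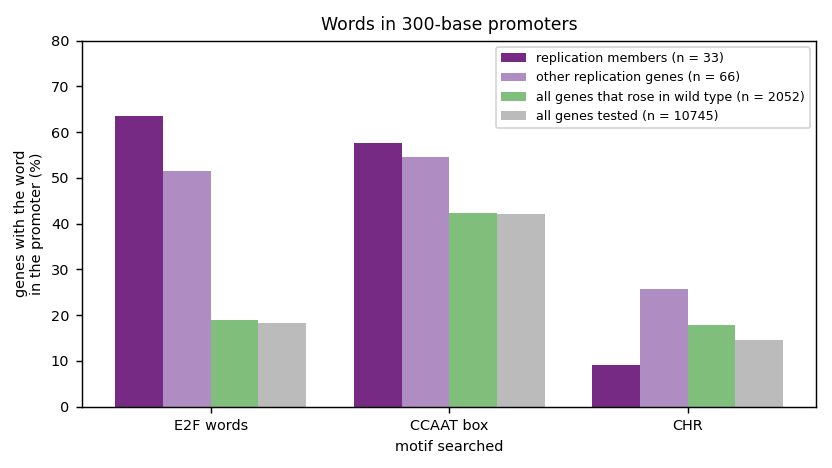
Share of genes (%, vertical axis) whose 300-base promoter holds an E2F word, a CCAAT box or the TTTGAA word of the cell cycle homology region (CHR), for the replication genes, other replication genes, all genes that rose in wild-type DNFB ears and all genes tested. The other replication genes include G1/S regulators and cyclin-dependent kinase inhibitors. The E2F bar of the replication genes stands at 63.6%, against 18.3% for all genes tested.

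The first question is what DNFB did to these genes within each genotype. In knockout ears 36 of the 38 genes rose and 0 fell, and in wild-type ears 36 rose and 0 fell; the same 36 genes were higher in the DNFB ear of all 6 mice. The median log2 fold change, DNFB over control ears, was 1.21 in knockout ears and 0.87 in wild-type ears, against -0.056 and -0.084 over all genes tested. Of all genes tested, 45.8% were called in knockout ears, 21.2% higher and 24.6% lower, and 43.0% were called in wild-type ears, 19.0% higher and 24.0% lower. With arrays centred on their medians the wild-type split was 23.7% higher and 17.3% lower, and the same count of 36 replication genes rose. A rise of at least 2-fold was called for 25 of the 38 genes in knockout ears and 17 in wild-type ears, against 8.43% and 7.52% of all genes. Calls are limma tests with Benjamini-Hochberg adjusted p under 0.05 over all probe sets tested. The 2 genes that were not called in either genotype were Orc6 and Tyms. In all 36 called genes the lowest DNFB ear lay above the highest control ear of the same genotype, in both genotypes, which was the case for 26.3% of all genes in knockout ears and 25.9% in wild-type ears. The opposite separation was found for 0 of the 38 genes, and for 30.3% of all genes in knockout ears and 33.4% in wild-type ears.

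**Figure D2:**
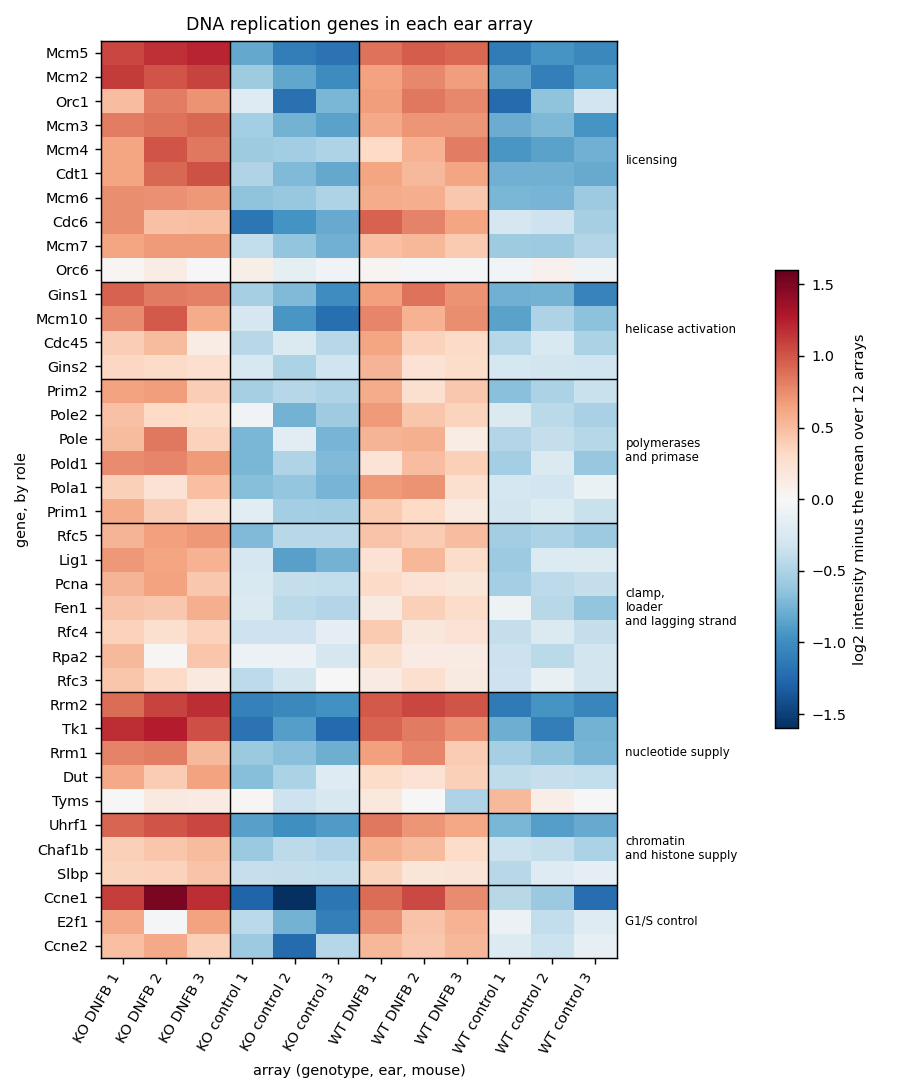
Log2 intensity of the 38 replication genes (rows, grouped by role) in each of the 12 arrays (columns), shown as the difference from the gene's mean over the arrays (red higher, blue lower). The 3 knockout and 3 wild-type DNFB ears are red for nearly all genes and the control ears blue; the rows of Orc6 and Tyms show no such split.

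The 10 licensing genes had the largest median response of the 7 roles, 1.46 in knockout ears and 1.40 in wild-type ears. In each genotype 9 of them rose. Nucleotide supply came next, at 1.39 in knockout and 1.26 in wild-type ears, with the dim gene Tyms counted among its 5 genes, so this order depends on Tyms. All 6 subunits of the Mcm ring rose, from Mcm7 (1.26 in knockout ears and 1.01 in wild-type ears) to Mcm5. Mcm5 had intensities of 603, 646 and 672 in knockout DNFB ears, against 164, 133 and 127 in knockout control ears. Mcm5 intensities in wild-type mice were 524, 562 and 542 in DNFB ears, against 133, 150.0 and 141 in control ears. For Mcm5 the log2 fold change was 2.19 ± 0.11 in knockout ears (adjusted p = 9.75e-07) and 1.94 ± 0.11 in wild-type ears (adjusted p = 2.28e-06), or 4.56-fold and 3.84-fold. All DNFB ears of both genotypes lay far above all control ears, with no overlap. Mcm2 had intensities of 290.2, 268 and 284 in knockout DNFB ears, against 90.3, 74.9 and 66.5 in knockout control ears. Mcm2 intensities in wild-type mice were 209, 228 and 214 in DNFB ears, against 73.1, 62.5 and 71.1 in control ears. The knockout DNFB ears were the highest of the 4 groups for Mcm2, and the log2 fold change was 1.87 ± 0.12 in knockout ears (adjusted p = 3.49e-06) and 1.66 ± 0.12 in wild-type ears (adjusted p = 7.98e-06). The other ring subunits rose by 1.59 and 1.49 (Mcm3), 1.37 and 1.42 (Mcm4) and 1.31 and 1.22 (Mcm6) on the log2 scale in knockout and wild-type ears.

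Cdc6 had intensities of 61.6, 50.8 and 51.2 in knockout DNFB ears, against 16.5, 18.9 and 21.1 in knockout control ears. Cdc6 intensities in wild-type mice were 70.7, 63.6 and 57.1 in DNFB ears, against 30.5, 29.2 and 25.5 in control ears. Cdc6, the ATPase that works with the origin recognition complex, thus stood higher in every DNFB ear than in every control ear, and the log2 fold change was 1.53 ± 0.13 in knockout ears (adjusted p = 1.91e-05) and 1.17 ± 0.13 in wild-type ears (adjusted p = 0.000119). Cdt1, the partner that brings the Mcm ring to origins, averaged 482 ± 64.1 in knockout DNFB ears and 167 ± 19.7 in knockout control ears, and 398 ± 17.0 in wild-type DNFB ears and 153 ± 1.83 in wild-type control ears (SD, n = 3 each). For Cdt1 the log2 fold change was 1.53 ± 0.12 in knockout ears (adjusted p = 1.08e-05) and 1.37 ± 0.12 in wild-type ears (adjusted p = 2.31e-05). Of the origin recognition complex, the list followed here holds the subunits Orc1 and Orc6. The subunits Orc2, Orc3, Orc4 and Orc5 were counted with the other origin and helicase factors below. Orc1 had intensities of 36.8, 45.8 and 42.7 in knockout DNFB ears, against 22.5, 11.4 and 15.7 in knockout control ears. Orc1 intensities in wild-type mice were 41.5, 46.9 and 44.4 in DNFB ears, against 11.1, 16.6 and 21.0 in control ears. The control ears of Orc1 lay around the filter intensity of 16, on both sides of it, and the log2 fold change was 1.39 ± 0.26 in knockout ears (adjusted p = 0.00225) and 1.49 ± 0.26 in wild-type ears (adjusted p = 0.0016). A second Orc1 probe set was called in neither genotype, at 0.42 in knockout ears (adjusted p = 0.25) and 0.29 in wild-type ears (adjusted p = 0.431). Orc6 had intensities of 147, 156 and 142 in knockout DNFB ears, against 153, 129.7 and 137 in knockout control ears. Orc6 intensities in wild-type mice were 147, 142 and 139.8 in DNFB ears, against 139, 150.4 and 137 in control ears. These 4 groups of Orc6 values overlap, and the log2 fold change was 0.09 ± 0.09 in knockout ears (adjusted p = 0.49) and 0.01 ± 0.09 in wild-type ears (adjusted p = 0.94), with 95% intervals of -0.12 to 0.29 and -0.19 to 0.21.

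**Figure D3:**
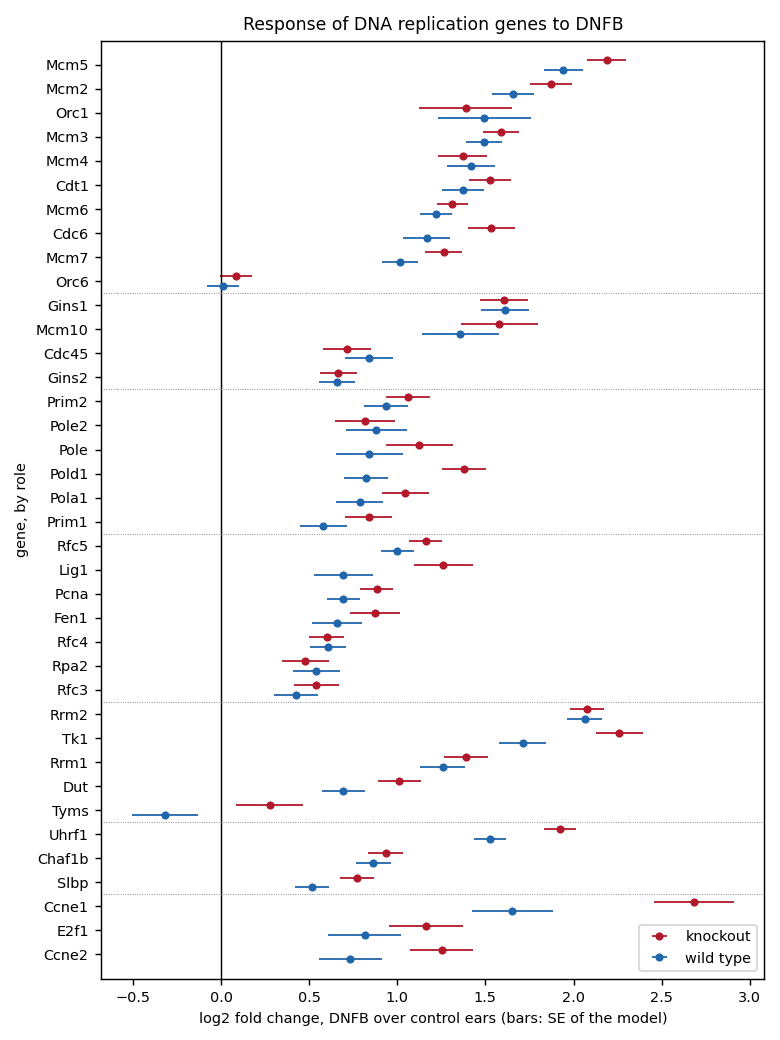
Log2 fold change, DNFB over control ears, of each of the 38 replication genes (rows, grouped by role in the order licensing, helicase activation, polymerases and primase, clamp and lagging strand, nucleotide supply, chromatin, G1/S control) in knockout and wild-type ears, with the standard error of the model (n = 3 per group). All genes but Orc6 and Tyms lie to the right of zero by more than their errors in both genotypes.

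All 4 genes of helicase activation rose in both genotypes, with medians of 1.15 in knockout ears and 1.10 in wild-type ears. Gins1 had intensities of 125, 116 and 113 in knockout DNFB ears, against 45.2, 39.7 and 32.6 in knockout control ears. Gins1 intensities in wild-type mice were 103, 118 and 107 in DNFB ears, against 38.2, 38.4 and 31.0 in control ears. Gins1, a subunit of the GINS complex, thus responded with 1.61 ± 0.14 in knockout ears (adjusted p = 1.69e-05) and 1.61 ± 0.14 in wild-type ears (adjusted p = 1.97e-05). Gins2, another subunit of the same complex, rose by 0.66 ± 0.10 in knockout ears and 0.66 ± 0.10 in wild-type ears, and its control ears lay between 52.1 and 62.4. A second, dimmer Gins2 probe set rose more, by 1.27 ± 0.18 in knockout ears and 1.06 ± 0.18 in wild-type ears. Mcm10 had intensities of 68.2, 80.1 and 61.0 in knockout DNFB ears, against 33.7, 21.2 and 17.6 in knockout control ears. Mcm10 intensities in wild-type mice were 69.2, 59.2 and 67.6 in DNFB ears, against 22.3, 28.8 and 25.6 in control ears. The spread among the knockout control ears of Mcm10, which holds the helicase to the polymerase, was wide, and the log2 fold change was 1.58 ± 0.22 in knockout ears (adjusted p = 0.000314) and 1.36 ± 0.22 in wild-type ears (adjusted p = 0.000913). Cdc45, the helicase cofactor, rose by 0.71 ± 0.14 in knockout ears and 0.84 ± 0.14 in wild-type ears.

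The 6 polymerase and primase genes all rose, with medians of 1.05 in knockout ears and 0.83 in wild-type ears. Pold1 had intensities of 112, 114 and 107 in knockout DNFB ears, against 40.0, 47.6 and 40.5 in knockout control ears. Pold1 intensities in wild-type mice were 76.9, 93.0 and 86.4 in DNFB ears, against 45.4, 56.5 and 43.5 in control ears. Pold1, the catalytic subunit of DNA polymerase delta, which copies the lagging strand, responded with 1.38 ± 0.12 in knockout ears (adjusted p = 2.42e-05) and 0.82 ± 0.12 in wild-type ears (adjusted p = 0.000663). Pola1 had intensities of 126, 114 and 136 in knockout DNFB ears, against 60.7, 63.4 and 58.0 in knockout control ears. Pola1 intensities in wild-type mice were 156, 159.8 and 117 in DNFB ears, against 79.8, 78.6 and 90.5 in control ears. Both DNFB groups of Pola1, the catalytic subunit of polymerase alpha, lay above both control groups, and the log2 fold change was 1.04 ± 0.13 in knockout ears (adjusted p = 0.000193) and 0.79 ± 0.13 in wild-type ears (adjusted p = 0.00124). Pole, the catalytic subunit of the leading-strand polymerase epsilon, rose by 1.13 ± 0.19 and 0.84 ± 0.19, and its partner subunit Pole2 by 0.82 ± 0.17 and 0.88 ± 0.17, in knockout and wild-type ears. The primase subunits rose by 0.84 ± 0.13 and 0.58 ± 0.13 (Prim1, catalytic) and by 1.06 ± 0.12 and 0.94 ± 0.12 (Prim2) in knockout and wild-type ears.

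The 7 genes of the clamp, its loader and the lagging strand had the smallest medians, 0.87 in knockout ears and 0.66 in wild-type ears, and all 7 rose in both genotypes. Pcna had intensities of 2176, 2333 and 2007 in knockout DNFB ears, against 1258, 1141 and 1128 in knockout control ears. Pcna intensities in wild-type mice were 1838, 1754 and 1705 in DNFB ears, against 1023, 1113 and 1145 in control ears. For Pcna, the sliding clamp that holds polymerases on DNA, the log2 fold change was 0.88 ± 0.09 in knockout ears (adjusted p = 6.35e-05) and 0.69 ± 0.09 in wild-type ears (adjusted p = 0.000333). The DNFB ears were above the control ears in both genotypes, and the knockout DNFB ears were above the wild-type DNFB ears. Lig1 had intensities of 262, 251 and 239.7 in knockout DNFB ears, against 134, 89.0 and 95.9 in knockout control ears. Lig1 intensities in wild-type mice were 191, 235 and 199 in DNFB ears, against 108, 139.6 and 139 in control ears. Lig1, the ligase that seals Okazaki fragments, responded with 1.26 ± 0.17 in knockout ears (adjusted p = 0.000248) and 0.69 ± 0.17 in wild-type ears (adjusted p = 0.00862). Fen1, the flap nuclease, rose by 0.87 ± 0.14 in knockout ears and 0.66 ± 0.14 in wild-type ears. The loader subunits rose by 1.16 and 1.00 (Rfc5), 0.60 and 0.61 (Rfc4) and 0.54 and 0.43 (Rfc3) in knockout and wild-type ears. Rpa2, a subunit of the single-strand binding protein RPA, rose by 0.48 ± 0.13 in knockout ears (adjusted p = 0.0163) and 0.54 ± 0.13 in wild-type ears (adjusted p = 0.00935). The wild-type call of Rfc3 (adjusted p = 0.0239) was lost with the mouse as a fixed block (adjusted p = 0.0685), without a filter on low intensity (adjusted p = 0.055), without wild-type control ear 1 or 3 and without wild-type DNFB ear 2 (adjusted p = 0.0782, 0.0694 and 0.0754). The knockout call of Rpa2 was lost without knockout control ear 3 (adjusted p = 0.0561) and without knockout DNFB ear 1 or 3 (adjusted p = 0.0575 for each).

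Of the 5 genes of nucleotide supply, 4 rose in each genotype, with medians of 1.39 in knockout ears and 1.26 in wild-type ears. Rrm2 had intensities of 836, 954 and 1023 in knockout DNFB ears, against 213, 221 and 232 in knockout control ears. Rrm2 intensities in wild-type mice were 895, 949 and 907 in DNFB ears, against 206, 234 and 218 in control ears. Rrm2, the small subunit of ribonucleotide reductase, which makes deoxynucleotides, had the largest wild-type response of the 38 genes, and the log2 fold change was 2.08 ± 0.10 in knockout ears (adjusted p = 8.22e-07) and 2.06 ± 0.10 in wild-type ears (adjusted p = 8.23e-07). These responses correspond to 4.22-fold in knockout and 4.18-fold in wild-type ears. Rrm1, the large subunit, rose by 1.39 ± 0.13 in knockout ears and 1.26 ± 0.13 in wild-type ears. Tk1 had intensities of 277, 291 and 249.7 in knockout DNFB ears, against 53.7, 66.1 and 51.6 in knockout control ears. Tk1 intensities in wild-type mice were 233, 216 and 203 in DNFB ears, against 71.3, 56.5 and 71.9 in control ears. For Tk1, the thymidine kinase of dividing cells, the log2 fold change was 2.26 ± 0.13 in knockout ears (adjusted p = 2.13e-06) and 1.71 ± 0.13 in wild-type ears (adjusted p = 1.21e-05). Dut, which removes dUTP, rose by 1.01 ± 0.12 in knockout ears (adjusted p = 0.000154) and 0.69 ± 0.12 in wild-type ears (adjusted p = 0.00169).

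Tyms, thymidylate synthase, was the other gene without a call. Tyms had intensities of 21.2, 23.4 and 23.2 in knockout DNFB ears, against 21.6, 17.0 and 17.8 in knockout control ears. Tyms intensities in wild-type mice were 24.0, 21.2 and 15.1 in DNFB ears, against 30.4, 23.0 and 21.3 in control ears. These intensities lay near 16 in all 4 groups and overlapped between them, and the log2 fold change was 0.27 ± 0.19 in knockout ears (adjusted p = 0.28) and -0.32 ± 0.19 in wild-type ears (adjusted p = 0.209). The 3 further probe sets that name Tyms alone did not pass the filter. Another probe set annotated to Tyms did not count as naming that gene alone and was not used.

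The 3 measured genes of chromatin and histone supply rose in both genotypes, with medians of 0.93 in knockout ears and 0.86 in wild-type ears. Uhrf1 had intensities of 347, 367 and 383 in knockout DNFB ears, against 99.8, 92.1 and 97.3 in knockout control ears. Uhrf1 intensities in wild-type mice were 326, 297 and 281 in DNFB ears, against 110.2, 99.4 and 105 in control ears. For Uhrf1, which brings the maintenance DNA methyltransferase to newly copied DNA, the log2 fold change was 1.92 ± 0.09 in knockout ears (adjusted p = 8.22e-07) and 1.52 ± 0.09 in wild-type ears (adjusted p = 2.83e-06), with no overlap between DNFB and control ears. Chaf1b, a subunit of the histone chaperone CAF-1, rose by 0.93 ± 0.10 and 0.86 ± 0.10, and Slbp, which binds the stem-loop of histone mRNAs, by 0.77 ± 0.10 and 0.52 ± 0.10, in knockout and wild-type ears.

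The 3 genes of G1/S control rose in both genotypes, with medians of 1.25 in knockout ears and 0.81 in wild-type ears. Ccne1 had intensities of 79.5, 105 and 83.9 in knockout DNFB ears, against 15.2, 10.4 and 16.6 in knockout control ears. Ccne1 intensities in wild-type mice were 68.6, 76.7 and 62.5 in DNFB ears, against 27.2, 24.4 and 15.9 in control ears. Ccne1, one of the E-type cyclins that activate Cdk2, had the largest estimate of the 38 genes in knockout ears; it responded with 2.68 ± 0.23 in knockout ears (adjusted p = 1.73e-05) and 1.65 ± 0.23 in wild-type ears (adjusted p = 0.000386). The knockout control ears of Ccne1 lay around 16, 2 of 3 below it. A second Ccne1 probe set rose by 1.97 ± 0.40 in knockout ears and by more, 2.47 ± 0.40, in wild-type ears. Ccne2 had intensities of 84.2, 91.8 and 78.4 in knockout DNFB ears, against 40.2, 25.5 and 43.8 in knockout control ears. Ccne2 intensities in wild-type mice were 86.8, 81.0 and 86.8 in DNFB ears, against 51.4, 47.3 and 54.7 in control ears. Ccne2, the other E-type cyclin, responded with 1.25 ± 0.18 in knockout ears (adjusted p = 0.000388) and 0.73 ± 0.18 in wild-type ears (adjusted p = 0.00897). E2f1 had intensities of 67.8, 43.4 and 69.4 in knockout DNFB ears, against 33.0, 26.4 and 20.9 in knockout control ears. E2f1 intensities in wild-type mice were 73.9, 61.3 and 65.4 in DNFB ears, against 41.6, 33.9 and 38.6 in control ears. Knockout DNFB ear 2 lay low among the DNFB ears for E2f1, a transcription factor that activates S-phase genes, and the log2 fold change was 1.16 ± 0.21 in knockout ears (adjusted p = 0.00163) and 0.81 ± 0.21 in wild-type ears (adjusted p = 0.0119).

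**Figure D4:**
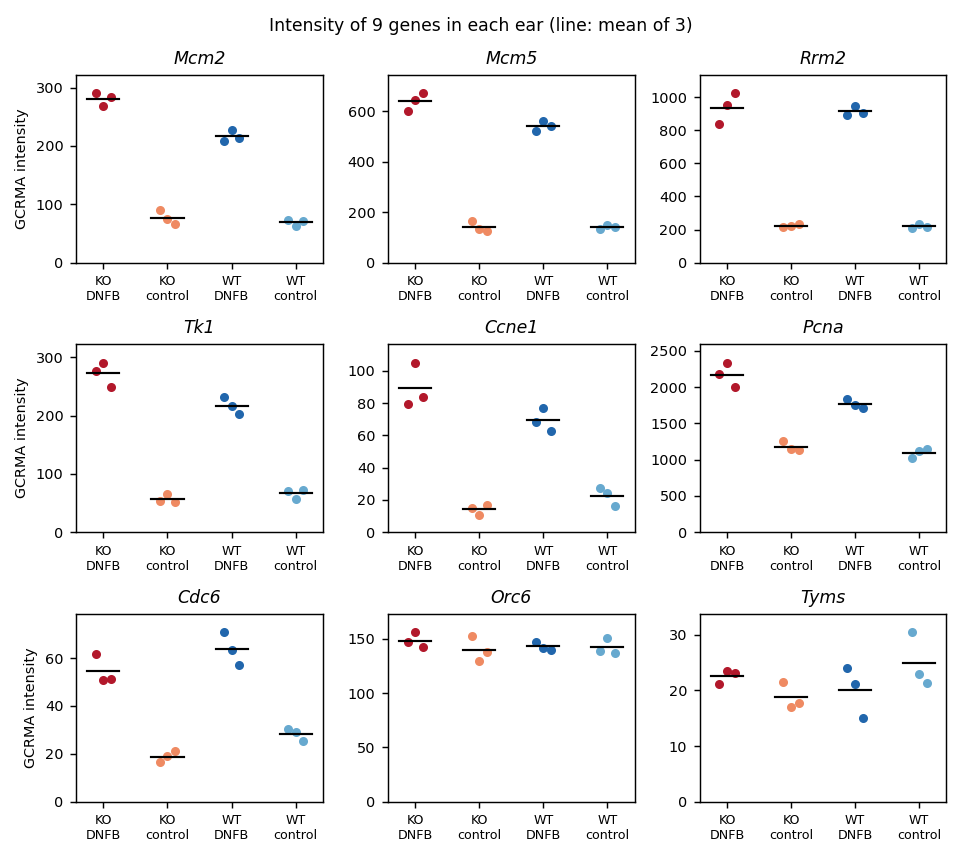
GCRMA intensity (vertical axes, linear, from 0) of 9 replication genes in each ear: points are single ears, lines the means of 3, with knockout DNFB, knockout control, wild-type DNFB and wild-type control ears from left to right. DNFB ears stand above control ears for the 7 genes from Mcm2 to Cdc6, and the groups overlap for Orc6 and Tyms.

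A second look at the same genes came from other probe sets. Of the 38 genes, 23 had more than 1 tested probe set, and of the 29 further probe sets 23 rose and 0 fell in knockout ears, while 22 rose and 0 fell in wild-type ears. For all 6441 genes with a second tested probe set, the second brightest rose for 16.1% and fell for 22.9% in knockout ears. In wild-type ears it rose for 15% and fell for 22.8%. Besides that of Orc1 given above, further probe sets of Prim1 (0.52 in knockout ears, adjusted p = 0.159, and 0.52 in wild-type ears, adjusted p = 0.159) and of Rpa2 (0.26, adjusted p = 0.0538, and 0.22, adjusted p = 0.0904) were called in neither genotype. A further set of Mcm3 was called in wild-type ears and not in knockout ears (0.42 in knockout ears, adjusted p = 0.0758, and 1.15 in wild-type ears, adjusted p = 0.000559). That of Mcm2 was called in knockout ears (1.38, adjusted p = 0.0146) and not in wild-type ears (0.76, adjusted p = 0.133), and likewise for E2f1 (1.17, adjusted p = 0.0129, and 0.10, adjusted p = 0.825). The next probe sets of Dut (mean intensity 9.70) and Slbp (mean intensity 21.5) stood at 1.71 and 0.12 in knockout ears and at -0.33 and -0.13 in wild-type ears, none of them called. With the mean over all tested probe sets of a gene, 35 of the 38 genes were called in knockout ears and 33 in wild-type ears. The calls lost were that of Dut in knockout ears (1.36, adjusted p = 0.0725) and those of Dut (0.18, adjusted p = 0.818), Slbp (0.19, adjusted p = 0.306) and E2f1 (0.46, adjusted p = 0.0842) in wild-type ears.

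The median response of the 38 genes was 1.06, 1.19 and 1.21 in knockout mice 1 to 3, against 1.00, 0.90 and 0.88 in wild-type mice 1 to 3, so the lowest knockout mouse lay just above the highest wild-type mouse. The same median over all genes lay between -0.082 and -0.045 in all 6 mice. Across the 38 genes the knockout and wild-type responses correlated at Pearson's r = 0.906 and Spearman's rho = 0.920, against 0.906 and 0.862 across all 13383 genes; the responses use different ears, genes are not independent replicates, and this is a description.

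The hybridization times in the instrument records fall into 3 clusters with 4 arrays each, called runs here. The labels name no batch, so these runs are an inference from times. Wild-type DNFB ear 1 and the 3 wild-type control ears fell in run 1. Wild-type DNFB ears 2 and 3 and knockout control ears 1 and 2 fell in run 2, and the 3 knockout DNFB ears and knockout control ear 3 in run 3. Within run 3, 38 of 38 genes were above zero in knockout ears (median 1.27), and within run 1, 37 of 38 were above zero in wild-type ears (median 1.01). Run 3 holds 1 knockout control ear and run 1 holds 1 wild-type DNFB ear, so each value rests on 1 ear on that side. A fit with run as a fixed block gave the same estimates and is no separate evidence. Its medians over all genes were -0.051 in knockout ears and -0.078 in wild-type ears. It called 34 replication genes higher in knockout ears and 31 in wild-type ears, against 11.8% and 10.8% of all genes. The calls lost were those of Rfc3 and Rpa2 in both genotypes and of Fen1, Lig1 and Ccne2 in wild-type ears. A sign of RNA quality, the Actb control probe sets at the 3' end over those at the 5' end, was lower in DNFB than in control ears of both genotypes. On the log2 scale it was 0.42 ± 0.01 in knockout DNFB ears against 0.48 ± 0.02 in knockout control ears, and 0.52 ± 0.08 in wild-type DNFB ears against 0.66 ± 0.07 in wild-type control ears (SD, n = 3 each). The same ratio for Gapdh ran the other way, at -0.32 ± 0.06 in knockout DNFB ears against -0.38 ± 0.06 in knockout control ears, and -0.35 ± 0.03 in wild-type DNFB ears against -0.40 ± 0.08 in wild-type control ears. The part of RNA quality in these results was not tested.

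The knockout was next set against the wild type within DNFB ears, which compares the levels reached under DNFB with and without the receptors. No gene of the 38 passed the threshold (limma, 5 at an unadjusted p under 0.05, against 9.75% of all genes), as for nearly all genes: 0.0672% of all genes were called, 0.0299% higher and 0.0374% lower. The median log2 difference, knockout over wild type, was 0.14, with 29 of 38 above zero, against 0.017 over all genes. Of all 13383 genes, 7160 were above zero. For 16 of the 38 genes every knockout DNFB ear lay above every wild-type DNFB ear, and for 0 every one lay below, while 8.96% of all genes were separated upward and 6.94% downward. With arrays centred on their medians the upward count was 17 (9.83% of all genes), and with quantile normalization 15 (9.39%). These counts use the brightest probe set of each gene. Among the 16 genes, a further tested set of Mcm6 (-0.06), of Mcm7 (-0.03) and of Slbp (-0.17) lay below zero. The other further tested sets of the 16 lay above zero. The 5 genes with the smallest p were Pcna (0.30 ± 0.09, adjusted p = 0.372), Mcm2 (0.37 ± 0.12, adjusted p = 0.372), Uhrf1 (0.28 ± 0.09, adjusted p = 0.375), Pold1 (0.38 ± 0.12, adjusted p = 0.383) and Tk1 (0.33 ± 0.13, adjusted p = 0.484). For these 5 genes the 3 knockout DNFB ears lay above the 3 wild-type DNFB ears, as in the values given for each above. The licensing genes had a median of 0.19 and 8 of 10 above zero, while Cdc6 stood at -0.23 (95% interval -0.52 to 0.07). For Rrm2 the difference was 0.03 (95% interval -0.19 to 0.25).

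The 3 knockout DNFB ears all fell in run 3 and the wild-type DNFB ears in runs 1 and 2. No run thus holds both, and no within-run value exists. With run as a fixed block, an estimate that then rests on the other groups, the median was 0.24 and 0 genes were called. The Actb ratio given above averaged lower in knockout than in wild-type DNFB ears, and in control ears as well, while the Gapdh ratio averaged higher in both, within its SD. Their part in either genotype difference was not tested.

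In control ears the same comparison gave no call among the 38 genes (limma, 6 at an unadjusted p under 0.05, against 9.80% of all genes), with 0.149% of all genes called, 0.0822% higher and 0.0672% lower. The median difference, knockout over wild type, was -0.047, against -0.00086 over all genes; for the 38 genes the sign turned under median centring (0.036), quantile normalization (0.011) and with run as a block (0.050). Every knockout control ear lay above every wild-type control ear for 2 genes (Mcm4 and Rpa2) and below for 4 (Cdc6, Pola1, Ccne2 and E2f1), against 9.35% and 8.79% of all genes. With arrays centred on their medians the counts were 4 above and 4 below, against 15.5% and 4.45% of all genes, and with quantile normalization 2 and 3, against 10.7% and 7.38%. The 5 smallest p-values belonged to Cdc6 (-0.59 ± 0.13, adjusted p = 0.156), Pola1 (-0.45 ± 0.13, adjusted p = 0.255), Ccne2 (-0.52 ± 0.18, adjusted p = 0.315), Ccne1 (-0.67 ± 0.23, adjusted p = 0.318) and E2f1 (-0.53 ± 0.21, adjusted p = 0.375). All 3 genes of G1/S control were thus among the 5, each lower in the knockout estimate and none past the threshold. Knockout control ears of Ccne1 lay around 16 and those of Cdc6 at 16.5 to 21.1, as given above. The second Ccne1 probe set pointed the other way, at 0.56 (adjusted p = 0.622). The 3 wild-type control ears all fell in run 1 and the knockout control ears in runs 2 and 3. Genotype and run thus cannot be told apart there by any within-run value.

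**Figure D5:**
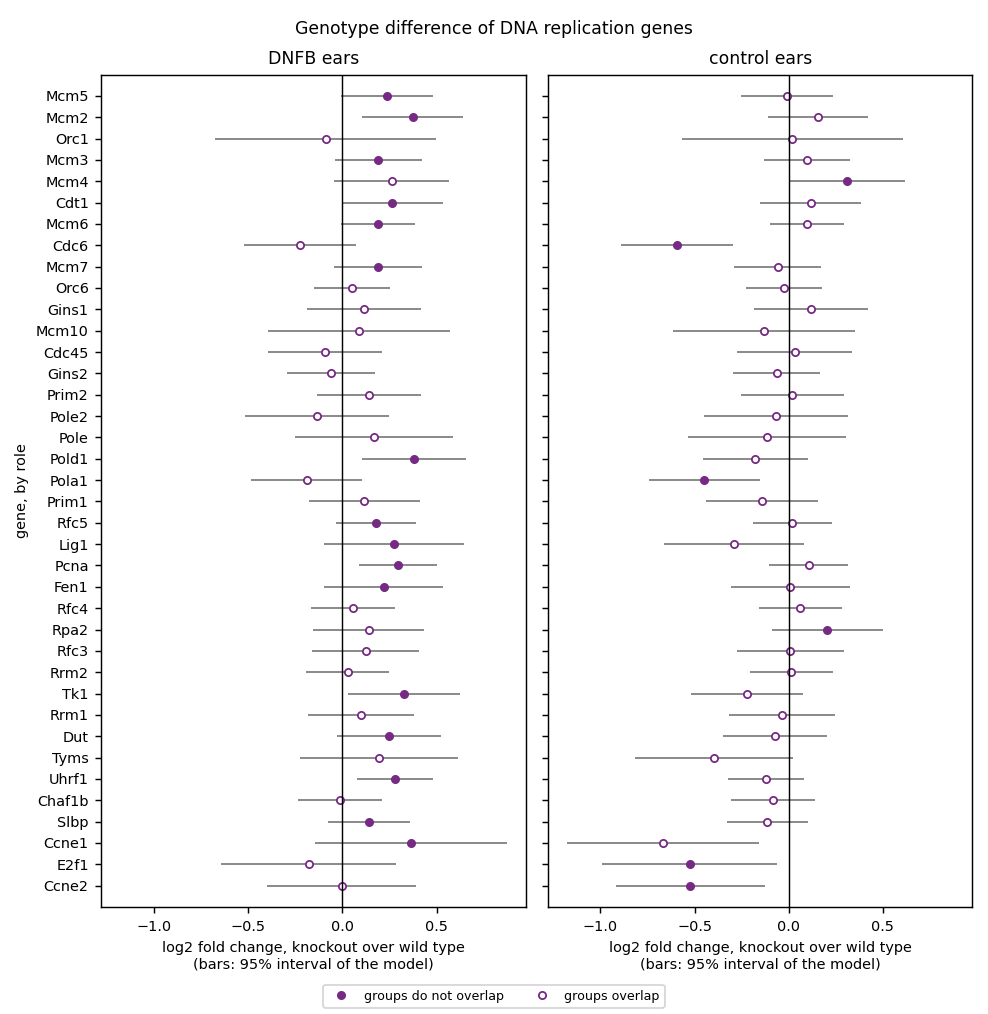
Log2 fold change, knockout over wild type, of each of the 38 replication genes in DNFB ears (left) and control ears (right), with the 95% interval of the model; filled points mark genes whose 3 knockout and 3 wild-type ears do not overlap. In DNFB ears 29 of 38 points lie right of zero and in control ears 16 do, against 7160 and 6664 of all 13383 genes tested. None of the 38 passed the threshold after adjustment.

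The difference of the responses, knockout minus wild type, tests whether DNFB moved these genes more in one genotype than in the other. None of the 38 genes passed (limma, 6 at an unadjusted p under 0.05, against 6.29% of all genes; 0.00747% of all genes were called, 1 gene in all). The median difference was 0.20, with 31 of 38 above zero, against 0.018 over all genes. Of all 13383 genes, 7114 were above zero. The 5 smallest p-values belonged to Ccne1 (1.03 ± 0.32, adjusted p = 0.677), Pold1 (0.56 ± 0.18, adjusted p = 0.681), Uhrf1 (0.40 ± 0.13, adjusted p = 0.681), Tk1 (0.55 ± 0.19, adjusted p = 0.716) and Lig1 (0.57 ± 0.24, adjusted p = 0.782). The estimate for Ccne1 rests on knockout control ears at 10.4 to 16.6, near the filter intensity, and its second probe set gave -0.50 (adjusted p = 0.936). The 95% intervals were -0.30 to 0.32 for Rrm2, -0.10 to 0.59 for Mcm5 and -0.10 to 0.49 for Pcna, each including zero. This difference shares its arrays with the 2 comparisons of genotypes and is no separate evidence.

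Other genes of DNA replication and its control were taken as further lists, which include G1/S regulators and cyclin-dependent kinase inhibitors. Of 80 tested, 51 rose and 8 fell in knockout ears (median 0.56), and 45 rose and 10 fell in wild-type ears (median 0.46). Among 17 other origin and helicase factors, 9 rose and 0 fell in knockout ears, and 10 rose and 0 fell in wild-type ears. Dbf4, the activator of the Cdc7 kinase, rose by 2.32 ± 0.15 in knockout ears and 2.00 ± 0.15 in wild-type ears, and Gmnn (geminin), the inhibitor of Cdt1, by 1.98 ± 0.09 and 1.79 ± 0.09. Ticrr, which helps recruit Cdc45, stood at 1.22 in knockout ears (adjusted p = 0.0605) and rose by 1.49 in wild-type ears (adjusted p = 0.0284), with wild-type control ears spread over 6.58, 31.0 and 19.3. Donson, a fork protein, stood at 0.56 in knockout ears (adjusted p = 0.113) and rose by 1.24 in wild-type ears (adjusted p = 0.00399); neither difference between genotypes was called. Among 22 other polymerase, clamp and fork factors, 19 rose and 1 fell in knockout ears and 16 rose and 1 fell in wild-type ears. Top2a, the topoisomerase that untangles copied DNA, rose by 2.64 ± 0.19 and 1.91 ± 0.19, Dna2, a nuclease of Okazaki fragments, by 1.89 ± 0.16 and 1.47 ± 0.16, and Dscc1, of an alternative clamp loader, by 1.73 ± 0.17 and 1.65 ± 0.17, each in knockout and wild-type ears. Chtf18, of the same loader, was below 16 in all control ears and averaged 19.2 in knockout and 19.5 in wild-type DNFB ears, a rise of at least 1.19-fold in both genotypes when the DNFB level is set against 16.

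Of 13 other nucleotide and chromatin factors, 10 rose and 0 fell in knockout ears and 9 rose and 1 fell in wild-type ears. Pclaf, a partner of Pcna, rose by 2.47 ± 0.12 in knockout ears and 1.77 ± 0.12 in wild-type ears, Hells, a chromatin remodeller, by 1.92 ± 0.18 and 1.73 ± 0.18, the histone chaperone Asf1b by 2.07 ± 0.15 and 1.43 ± 0.15, and Shmt1, of folate metabolism, by 1.01 ± 0.14 and 0.80 ± 0.14. Of 22 other G1/S regulators, 12 rose and 3 fell in knockout ears and 9 rose and 3 fell in wild-type ears. E2f8 and E2f7, repressors of the E2F family, rose by 2.80 ± 0.28 in knockout and 2.79 ± 0.28 in wild-type ears (E2f8), and by 2.73 ± 0.27 in knockout and 1.79 ± 0.27 in wild-type ears (E2f7). Ccna2, the cyclin of S phase, rose by 2.28 ± 0.12 in knockout ears and 1.85 ± 0.12 in wild-type ears. Ccnd2, a D-type cyclin, moved the other way, with 682, 693 and 503 in knockout DNFB ears against 1836, 1698 and 1435 in knockout control ears, and 643, 613 and 603 in wild-type DNFB ears against 1722, 1858 and 1607 in wild-type control ears; its log2 change was -1.41 ± 0.14 in knockout ears and -1.48 ± 0.14 in wild-type ears.

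The cyclin-dependent kinase inhibitors, which hold cells out of S phase, mostly fell: of 6 tested, 1 rose and 4 fell in knockout ears, and 1 rose and 5 fell in wild-type ears. Cdkn1c (p57) had 109, 107 and 95.7 in knockout DNFB ears against 399.6, 488 and 466 in knockout control ears, and 94.1, 115 and 103 in wild-type DNFB ears against 380.2, 349 and 364 in wild-type control ears. All DNFB ears of Cdkn1c lay below all control ears, and the log2 fold change was -2.12 ± 0.11 in knockout ears (adjusted p = 1.29e-06) and -1.81 ± 0.11 in wild-type ears (adjusted p = 3.42e-06). Cdkn1a (p21) fell in both, at -0.54 ± 0.08 in knockout ears and -0.38 ± 0.08 in wild-type ears, as did Cdkn2b (-0.56 and -0.58) and Cdkn2c (-0.39 and -0.46). Cdkn1b (p27) stood at -0.23 ± 0.14 in knockout ears (adjusted p = 0.206) and fell in wild-type ears (-0.46 ± 0.14, adjusted p = 0.0224). The member that rose was Cdkn2d (0.88 in knockout ears and 0.41 in wild-type ears), named after its values were seen.

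Marker genes of the cells in the ear moved in the same DNFB comparison; in whole tissue, more cells of a type and more RNA per cell cannot be told apart. All 4 keratins of wounded epidermis rose, with summed intensities of 18754 to 22432 in knockout DNFB ears against 816 to 939 in knockout control ears, and 20682 to 23387 in wild-type DNFB ears against 826 to 971 in wild-type control ears. All 7 monocyte and macrophage markers rose in both genotypes, as did 5 of 9 tested T and NK cell markers and 4 of 5 tested neutrophil markers. Monocyte and macrophage sums were 8644 to 10139 in knockout DNFB ears against 3047 to 3359 in knockout control ears, and 8324 to 10669 in wild-type DNFB ears against 2994 to 3249 in wild-type control ears. T and NK cell sums were 1227 to 1469.7 in knockout DNFB ears against 259.6 to 298 in knockout control ears, and 1065 to 1366 in wild-type DNFB ears against 239 to 283 in wild-type control ears. Both leukocyte sums were thus higher in every DNFB ear than in every control ear. Neutrophil sums were 7387 to 11749 in knockout DNFB ears against 129 to 737 in knockout control ears, and 9002 to 12457 in wild-type DNFB ears against 144 to 314 in wild-type control ears. Of the 7 basal keratinocyte markers, 2 rose and 2 fell in knockout ears and 0 rose and 2 fell in wild-type ears. Their sums overlapped between the ears, at 18872 to 21434 in knockout DNFB ears against 17871 to 21226 in knockout control ears, and 18143 to 20435 in wild-type DNFB ears against 19890.0 to 22139 in wild-type control ears. Of the 10 hair matrix and hair shaft markers, 6 rose in knockout ears and 4 in wild-type ears, with uneven sums of 4615, 4225 and 882 in knockout DNFB ears and 3509, 1185 and 828 in wild-type DNFB ears, against 263 to 279 in knockout control ears and 262 to 357 in wild-type control ears. These DNFB sums are in the order of mice 1 to 3. In the same order the median responses of the 38 genes were 1.06, 1.19 and 1.21 in knockout mice and 1.00, 0.90 and 0.88 in wild-type mice. Of the other lists, 4 of 5 fibroblast and 4 of 5 muscle markers fell in each genotype, cartilage markers fell for 4 of 5 in knockout ears and 3 of 5 in wild-type ears, and 1 of 5 endothelial markers rose in knockout ears and 0 in wild-type ears. No marker on the array was below 16 on all 12 arrays, and the part of these cells in the replication genes' response was not tested.

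The deleted receptors could not be used to check the genotype labels. Cnr1 averaged 10.2 in knockout DNFB ears, 11.2 in knockout control ears, 12.0 in wild-type DNFB ears and 10.8 in wild-type control ears, and Cnr2 averaged 32.7, 13.8, 24.0 and 12.7 in the same groups. Neither was lower in knockout than in wild-type ears after adjustment (limma, adjusted p = 0.808 and 0.721 in DNFB ears, 0.941 and 0.948 in control ears), and where the probe sets lie relative to the deletions is not stated. Orc1, Rpa2 and Ccne2 lie on chromosome 4, which also carries both receptor genes; their log2 differences, knockout over wild type, were -0.09 in DNFB ears and 0.02 in control ears for Orc1, 0.14 and 0.20 for Rpa2 and -0.0035 and -0.52 for Ccne2, none past the threshold.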

How the data were processed

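RNA from 12 whole ears, 4 groups of 3, was hybridized to Affymetrix Mouse430_2 arrays. The authors deposited linear intensity values normalized across arrays with GCRMA, per the submitters' processing notes, version not given in the sources used here; array medians were 24.7 to 30.1. The authors also deposited other instrument records, from whose hybridization times the runs were inferred (a gap above 30 minutes starts a run). No deposited column was left unused (0).

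Of 45101 probe sets, 34958 name 1 gene, 932 several and 9211 none; 64 control sets were left out. Probe sets at 16 or more in at least 3 arrays (29460) were tested on log2 intensity with limma 3.58.1 in R 4.3.3, with 1 coefficient per group, 5 contrasts, Benjamini-Hochberg adjustment over all probe sets tested and a threshold of 0.05. The adjusted p-values in all sections are from this test. A gene takes the probe set, of those naming it alone, that averages highest in log2 intensity. Where all ears of a group are under 16, the fold is a bound against 16, a rule set after the values were seen. Model intervals are at 95%. GCRMA shrinks values near background, so folds of dim genes depend on it, and the number of arrays limits the precision. Promoters were searched and figures drawn with Python 3.11.15, pandas 2.3.3 and matplotlib 3.10.9. The code of the fit was checked on simulated data with independent noise. Those data held no mouse or run effect, so the check does not cover such effects.

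Members and lists were chosen with earlier results of these data known. All measured members are named for the DNFB responses; for the genotype comparisons, those past the threshold or, with fewer than 5, the 5 with the smallest p. Of each other replication list, the up to 4 genes past the threshold with the largest wild-type change are named, and Cdkn1a.

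Ears are paired by mouse per the labels; the deviations of a mouse's ears from their group means correlated at -0.00426 to 0.0797. Alternatives were filters, log offset, floor, scaling, variance model, mouse and run blocks, choice of probe set and each array left out.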

Additional observations from a re-analysis of the deposited data

How the results depend on the processing

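No replication gene was called in the 2 genotype comparisons under the 23 alternative settings run for them, 12 of which left out an array, or in the difference of the responses under 24; the mouse as a fixed block was not run for the genotype comparisons, since it takes up the genotype. The number called higher was 35 to 36 in each DNFB response with 1 array left out; the median log2 fold change was then 1.16 to 1.30 in knockout ears and 0.83 to 0.95 in wild-type ears. The knockout median was 0.94 on log2(intensity + 16), and the wild-type median was 0.74 there, 0.99 with arrays centred on their medians, 0.99 with quantile normalization and 0.97 with the second brightest probe set. Fitting run as a block gave a wild-type median of 1.01; the knockout over wild-type median was 0.24 in DNFB ears and 0.050 in control ears, where centring gave 0.036, and 3278 genes were called in knockout and 3063 in wild-type ears, against 6123 and 5761. With the mean over a gene's tested probe sets, 35 replication genes were called in knockout and 33 in wild-type ears. The second brightest probe set exists only for genes with several tested sets. With it, 18 and 16 of 23 replication genes were called in knockout and wild-type ears, and 2517 and 2440 of 6441 genes in all. Dut (-0.33) and Slbp (-0.13) turned sign in wild-type ears, and Ccne1 in control ears (0.56) and in the difference of the responses (-0.50). Orc6, which was not called, ranged over -0.015 to 0.052 in wild-type ears with an array left out. Centring moved the wild-type median of all genes to 0.031, against -0.084, and the calls to 23.7% higher and 17.3% lower, against 19.0% and 24.0%. The cause of these shifts was not tested.

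With the mouse as a fixed block for the pairing of ears, 36 replication genes were called in knockout ears and 35 in wild-type ears, where Rfc3 was lost, and 5543 and 5167 genes in all; as a random block it left 36 in each. The pairing changed no other call among the replication genes. Dim probe sets limit Tyms, Orc1 and Ccne1, whose control ears lie near 16. The knockout control ears of Cdc6 (16.5 to 21.1) and Mcm10 (17.6 to 33.7) are dim as well.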
